A study of Homo sapiens with 4 samples.

Results

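Krüppel-like factors (KLFs) were measured by RNA-sequencing in SUM159 cells and in clones of these cells edited at NOS2, the gene of inducible nitric oxide synthase (iNOS). Coordinates are those of GRCh38. The 10 genes described here are KLF2, KLF3, KLF4, KLF5, KLF6, KLF7, KLF9, KLF10, KLF11 and KLF13, out of 18 KLF genes and 57500 genes in all. They were found by their symbols in the GENCODE release 29 annotation. The genes were chosen with their levels in the clones and in the parental library already known, so that the difference between parental cells and clones is described here and was not tested for them. SUM159 is an established triple-negative breast cancer cell line of mesenchymal type. There was 1 library of unedited parental cells (genotype Parental Control) and 1 library from each of 3 NOS2KO clones, numbered 1, 5 and 6. All 3 numbers are those of the sample labels, also where the text writes library labelled clone 5. The clones came from SUM159 cells that received a double nickase plasmid against NOS2, survived puromycin and were picked by their iNOS protein and nitrite and nitrate output. No library is labelled as cells given a control plasmid or puromycin alone, so editing, selection and growth from a picked clone cannot be told apart.

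KLFs are DNA-binding proteins with a row of zinc fingers at the carboxyl end that contacts GC-rich sites and CACCC boxes, as the related SP proteins do. Their amino ends differ, and this divides the family into a group that mainly activates transcription (here KLF2, KLF4, KLF5, KLF6 and KLF7), a group that recruits the corepressor CtBP (KLF3) and a group that recruits the corepressor SIN3 (KLF9, KLF10, KLF11 and KLF13). In epithelia they are best known for the balance of proliferation and differentiation, and KLF4 is also a reprogramming factor for pluripotent stem cells.

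The promoters of KLF2, KLF4 and KLF6 are shown because these 3 genes stand for the patterns seen, with KLF4 lower in each clone, KLF6 higher in each clone and KLF2 split among the clones. The sequences are from RefSeq on GRCh38.p14, run 5′ to 3′ on the strand of the gene within 250 bases before the start site, and omit bases that are exonic in the annotation of the counts. Capitals mark GC boxes (GGGCGG on either strand) and, in KLF2, a MEF2 site.
KLF2, chr19:16324576-16324816, plus strand: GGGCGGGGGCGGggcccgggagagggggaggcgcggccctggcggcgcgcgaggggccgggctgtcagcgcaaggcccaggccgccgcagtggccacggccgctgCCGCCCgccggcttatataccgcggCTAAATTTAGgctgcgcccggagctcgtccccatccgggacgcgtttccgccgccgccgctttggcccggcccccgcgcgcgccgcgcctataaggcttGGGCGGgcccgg
KLF4, chr9:107489770-107490019, minus strand: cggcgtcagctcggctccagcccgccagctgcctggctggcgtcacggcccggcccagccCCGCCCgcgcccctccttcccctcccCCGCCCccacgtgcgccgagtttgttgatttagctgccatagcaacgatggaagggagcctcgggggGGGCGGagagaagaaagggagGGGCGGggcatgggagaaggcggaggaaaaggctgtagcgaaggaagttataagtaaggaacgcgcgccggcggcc
KLF6, chr10:3785282-3785459, minus strand: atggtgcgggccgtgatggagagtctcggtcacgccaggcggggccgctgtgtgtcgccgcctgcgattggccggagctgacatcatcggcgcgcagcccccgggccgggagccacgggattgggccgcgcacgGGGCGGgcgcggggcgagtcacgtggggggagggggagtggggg
The RefSeq start site of KLF4 lies 713 bases inside the 5′ end of the gene in the annotation of the counts, and the window before it lies in an intron there. That of KLF11 lies 980 bases inside, and the longest stretch of its window outside exons had 70 bases. The KLF2 window held 4 GC boxes and the KLF4 window 4, while 1 lies in the printed part of the KLF6 window. Windows were matched for 8 of the 10 genes, and KLF3 and KLF10 had none. A GC box was present in 5 of the 8 windows (KLF2, KLF4, KLF6, KLF11 and KLF13), beside 42.3% of 27305 RefSeq windows of the same length. CACCC was present on either strand in 3 windows (KLF5, KLF7 and KLF13), beside 53.7% of all windows, and in KLF13 it shared a base with a GC box. A MEF2 site was found in KLF2 only, from base -120 to base -111 relative to the start site, beside 2.86% of all windows. A CArG box was found in KLF7 only, from base -62 to base -53, beside 1.17%. No window held an AP-1 site (TGANTCA, 6.56% of all windows), a cyclic AMP response element (TGACGTCA, 1.75%) or an NF-kappaB site (5.12%). The median GC content was 70.8% over the 8 windows, with a range from 32.4% to 80%, beside 57.6% over all windows. These matches describe the letters in the windows only.

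The authors deposited raw read counts per gene, which came to between 90467395 and 122171287 per library. Levels are given as CPM, the field's unit for read counts relative to library size, after scaling by the trimmed mean of M values (TMM). Of the 57500 genes, 22511 passed the expression filter, the 10 KLF genes among them. The parental cells had 1 library, so all spread comes from the clones, and the same spread is taken for the parental cells, while an exact permutation of 1 library against 3 cannot go below p = 0.25. Intervals are exact 95% intervals from the counts and cover counting error only. NOS2 was all but absent, with counts of 2 (parental), 3 (clone 1), 18 (library labelled clone 5) and 1 (clone 6), so that its mRNA cannot serve as a check of the labels. Of the line's markers, VIM, CD44 and ZEB1 had at least 39.5 CPM in every library, and CDH1, EPCAM, ESR1 and PGR had at most 0.741 CPM. ERBB2, FOXA1 and GATA3 were not low in every library. ERBB2 had 48.3 CPM in the parental library and up to 106 CPM in the clones, FOXA1 had 2.69 and up to 24.1 CPM, and GATA3 had 10.5 CPM and 1.61 to 5.37 CPM. Of 5 markers of other cell types, 2 passed 1 CPM in each library, and their summed level was 20.7 CPM in the parental library and 50.7 to 113 CPM in the clones. The 2 were PECAM1, an endothelial marker with 16.1 CPM in the parental library and 7.06 to 13.9 CPM in the clones, and PTPRC, a leukocyte phosphatase with 4.45 CPM and 41.7 to 105 CPM, while the liver marker ALB had at most 0.0262 CPM, the T cell marker CD3E had at most 0.0750 CPM and the macrophage marker CD68 at most 0.294 CPM. The part of these markers in the KLF values was not tested. In bulk RNA, fewer cells expressing a gene and less RNA per cell cannot be told apart.

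Of the 10 KLF genes, 6 were lower than in the parental library in all 3 clones (KLF3, KLF4, KLF5, KLF9, KLF10 and KLF11), 1 was higher in all 3 (KLF6), and 3 were mixed (KLF2, KLF7 and KLF13). Across the 22511 genes, 30.5% were lower and 28.6% were higher in all 3 clones. KLF4, KLF5 and KLF11 were lower by over 1 on the log2 scale in each clone, as were 6.29% of all genes, and KLF6 was higher by over 1 in each, as were 7.67%. Because these same differences chose the genes, nothing is read from the counts. For all 7 genes with a common direction, the log2 gap between the parental library and the nearest clone was wider than the range of the 3 clones. Such a gap was present in 11.8% of all genes toward lower and 10.0% toward higher levels in the clones. Only genes with a common direction can have such a gap, and 59.1% of all genes had a common direction. For KLF5 the gap was 1.23 and the range 1.17, and with upper quartile scaling, with total counts only or with a minimum mean of 1 CPM the gap no longer exceeded the range. The median fitted log2 fold change, clones over parental, was -0.88 over the 10 genes and 0.10 over all genes. The gaps and the median of the 10 genes come from the same differences that chose the genes, so nothing is read from them either.

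**Figure D1:**
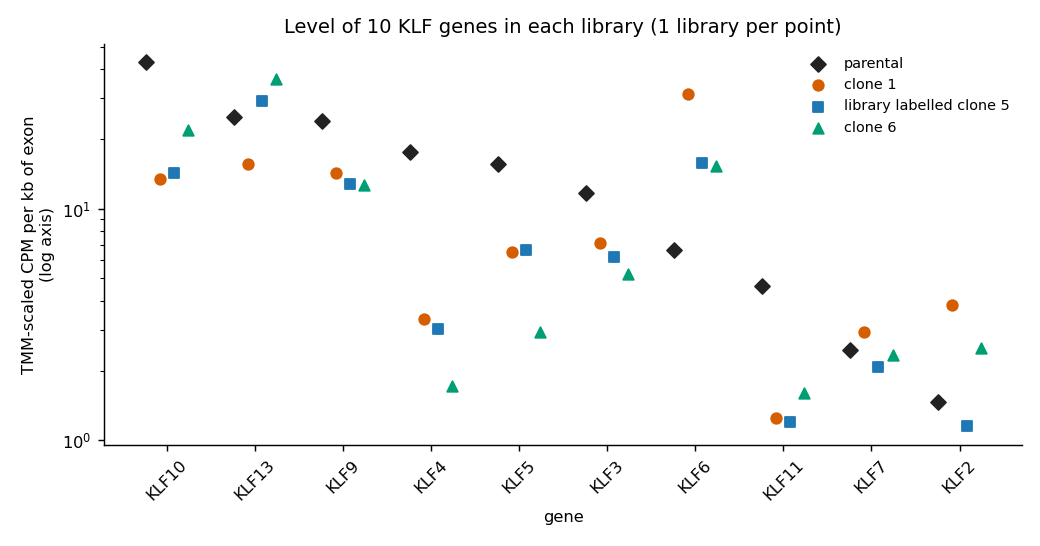
Level of each of the 10 KLF genes in CPM per kb of exon on a log axis, with 1 point per library and the genes ordered by the parental level. The parental point lies above all 3 clones for KLF10, KLF9, KLF4, KLF5, KLF3 and KLF11 and below them for KLF6.

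In the activating group, KLF4 stood furthest from the parental level. KLF4 (ENSG00000136826, chr9:107484852-107490482), which drives barrier formation in stratified epithelia, had counts of 5795 (parental), 1398 (clone 1), 1183 (library labelled clone 5) and 621 (clone 6). In scaled levels this was 64.1 CPM in the parental library, 12.2 CPM in clone 1, 11.1 CPM in the library labelled clone 5 and 6.30 CPM in clone 6. The clones thus did not overlap the parental library, and clone 6 was the lowest. Relative to the parental library, the log2 ratio was -2.39 (interval -2.48 to -2.31) in clone 1, -2.53 (-2.62 to -2.44) in the library labelled clone 5 and -3.35 (-3.47 to -3.23) in clone 6. Clone 6 was 10.2-fold below the parental level and clone 1 was 5.26-fold below it. Between the library labelled clone 5 and clone 6 the KLF4 log2 difference was 0.82 (0.68 to 0.96), and between clone 1 and the library labelled clone 5 it was 0.14 (0.02 to 0.25).

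KLF5 (ENSG00000102554, chr13:73054976-73077542) promotes proliferation of basal epithelial cells. It had 60.6 CPM in the parental library, 25.4 CPM in clone 1, 25.8 CPM in the library labelled clone 5 and 11.4 CPM in clone 6. The order of the libraries was close to that of KLF4, with clone 6 again the lowest. The log2 ratio was -1.26 (-1.32 to -1.19) in clone 1, -1.23 (-1.30 to -1.17) in the library labelled clone 5 and -2.41 (-2.5 to -2.31) in clone 6. Clone 1 and the library labelled clone 5 differed by -0.02 on the log2 scale (-0.10 to 0.06), within counting error, while the library labelled clone 5 exceeded clone 6 by 1.17 (1.07 to 1.27).

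KLF6 (ENSG00000067082, chr10:3775996-3785281), an immediate-early gene of tissue injury and a tumor suppressor in several cancers, was the only one of the 10 that was higher in each clone. It had 40.7 CPM in the parental library, 192 CPM in clone 1, 96.8 CPM in the library labelled clone 5 and 94.1 CPM in clone 6. No clone overlapped the parental library, and clone 1 was the highest. The log2 ratio was 2.24 (2.19 to 2.29) in clone 1, 1.25 (1.20 to 1.30) in the library labelled clone 5 and 1.21 (1.15 to 1.26) in clone 6, or 4.73-fold, 2.38-fold and 2.31-fold. The fitted log2 fold change was 1.65, from the same differences that chose the genes, so nothing is read from it. The library labelled clone 5 and clone 6 differed by 0.04 on the log2 scale, with an interval that starts at 0.00 and ends at 0.08.

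KLF2 (ENSG00000127528, chr19:16324817-16327874), which keeps endothelium and T cells quiescent, was among the least abundant of the 10. It had counts of 267 (parental), 886 (clone 1), 247 (library labelled clone 5) and 500 (clone 6), or 2.95, 7.73, 2.32 and 5.07 CPM. The clones lay on both sides of the parental library. The log2 ratio was 1.39 (1.19 to 1.59) in clone 1 and 0.78 (0.56 to 1.00) in clone 6 but -0.35 (-0.61 to -0.10) in the library labelled clone 5. Its range over the clones, 1.74 on the log2 scale, was the widest of the 10 genes. KLF7 (ENSG00000118263, chr2:207074137-207167267), a factor of neuronal development, had 22.8 CPM in the parental library, 27.2 CPM in clone 1, 19.2 CPM in the library labelled clone 5 and 21.7 CPM in clone 6. The parental level lay inside the range of the clones, and in clone 6 the interval of the log2 ratio, -0.16 to 0.02, included 0.

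**Figure D2:**
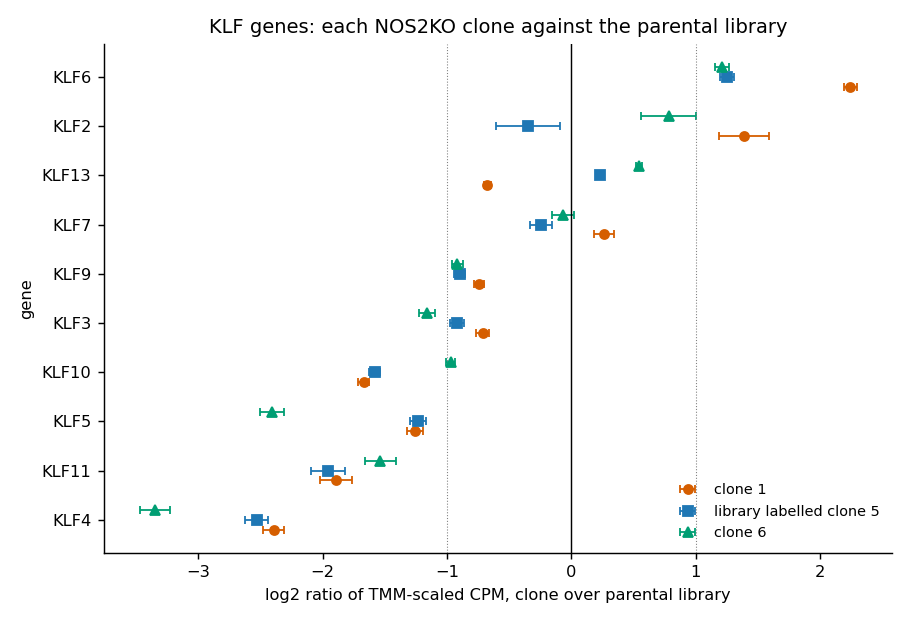
Log2 ratio of TMM-scaled CPM of each NOS2KO clone over the parental library for the 10 KLF genes, with exact 95% counting intervals as bars, a solid line at 0 and dotted lines at -1 and 1. KLF4 lies between -3.35 and -2.39, KLF6 between 1.21 and 2.24, and the 3 points of KLF2, KLF7 and KLF13 fall on both sides of 0.

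KLF3 (ENSG00000109787, chr4:38664196-38701042) represses transcription through CtBP. Its level was 73.4 CPM in the parental library, 44.8 CPM in clone 1, 38.8 CPM in the library labelled clone 5 and 32.8 CPM in clone 6. All clones were below the parental library, with log2 ratios from -1.16 to -0.71. KLF3 shares 266 exon bases (4.22% of its exons) with KLF3-AS1 on the opposite strand, and the strand setting of the counting was not given in the sources used here. KLF3-AS1 had 116 to 157 counts per library, against at least 3236 for KLF3.

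Of the SIN3-recruiting group, 3 genes were lower in each clone and KLF13 was mixed. KLF10, also known as TGF-beta inducible early gene 1 (ENSG00000155090, chr8:102648779-102655902), had 172 CPM in the parental library, 54.0 CPM in clone 1, 57.3 CPM in the library labelled clone 5 and 87.7 CPM in clone 6. Here clone 6 was nearest to the parental library, unlike for KLF4 and KLF5. The log2 ratio was -1.67 (-1.71 to -1.63) in clone 1, -1.58 (-1.63 to -1.54) in the library labelled clone 5 and -0.97 (-1.01 to -0.93) in clone 6, which kept KLF10 just outside the genes lower by over 1 in each clone.

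KLF11 (ENSG00000172059, chr2:10042849-10054836), TGF-beta inducible early gene 2, had 21.4 CPM in the parental library, 5.75 CPM in clone 1, 5.50 CPM in the library labelled clone 5 and 7.36 CPM in clone 6. The clones lay close together and apart from the parental library. The log2 ratios ran from -1.96 to -1.54. The fitted log2 fold change of -1.78 comes from the same differences that chose the genes and was not tested. KLF11 shares 416 exon bases (9.07%) with AC104794.4 on the opposite strand, which had 2 counts in the parental library and 0 in each clone.

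KLF9 (ENSG00000119138, chr9:70384597-70414624), a gene induced by glucocorticoids and thyroid hormone, had 124 CPM in the parental library, 74.0 CPM in clone 1, 66.4 CPM in the library labelled clone 5 and 65.6 CPM in clone 6. It had the narrowest range over the clones, 0.17 on the log2 scale, and its log2 ratios lay between -0.92 and -0.74. KLF13 (ENSG00000169926, chr15:31326855-31435665), which activates the chemokine gene CCL5 in T cells, had 235 CPM in the parental library, 147 CPM in clone 1, 275 CPM in the library labelled clone 5 and 343 CPM in clone 6. Clone 1 was below the parental level and the others above it, with log2 ratios of -0.68 (-0.70 to -0.65), 0.23 (0.20 to 0.25) and 0.55 (0.52 to 0.57).

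The clones differed among themselves for many of these genes. The median range of the 3 clones was 0.83 on the log2 scale over the 10 genes, from 0.17 to 1.74, beside 0.56 over 9828 genes with a mean of at least 10 CPM. Over the 10 genes the median absolute log2 difference was 0.18 between clone 1 and the library labelled clone 5, 0.37 between that library and clone 6, and 0.65 between clone 1 and clone 6. Over the 9828 genes these medians were 0.42, 0.23 and 0.40. KLF2 and KLF11 did not reach a mean of 10 CPM, and over the other 8 KLF genes the median range was 0.83 and the medians of the differences were 0.18, 0.28 and 0.83. The pair of clones with the smallest median difference was thus clone 1 and the library labelled clone 5 for the KLF genes, and the library labelled clone 5 and clone 6 for all genes, a difference between rankings that was not tested.

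To compare the genes with each other, levels were divided by exon length. The summed level of the 10 genes was 152 CPM per kb in the parental library. In the clones it was 99.8 (clone 1), 92.4 (library labelled clone 5) and 103 CPM per kb (clone 6). The differences between parental library and clones chose these genes, so nothing is read from the lower sum in each clone. The sum, the order and the shares below hold for these 10 genes only. KLF16, outside them, had 18.8 CPM per kb in the parental library. In the parental library KLF10 came first with 42.9 CPM per kb, followed by KLF13 with 25.0, KLF9 with 23.9 and KLF4 with 17.5. KLF2 came last with 1.46 CPM per kb. In the clones the order of the mean level was KLF13 with 27.1 ± 10.6 CPM per kb (SD, n = 3), KLF6 with 20.8 ± 9.12, KLF10 with 16.6 ± 4.63, KLF9 with 13.3 ± 0.899, KLF3 with 6.16 ± 0.952, KLF5 with 5.36 ± 2.10, KLF4 with 2.70 ± 0.856, KLF2 with 2.496 ± 1.34, KLF7 with 2.45 ± 0.444 and KLF11 with 1.35 ± 0.221. Of neighbours in this order, KLF9 and KLF3, and also KLF7 and KLF11, lay further apart than the sum of their SDs, and the other neighbours did not.

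As a share of the summed CPM per kb, KLF6 made up 4.37% of the parental level and 31.4% (clone 1), 17.1% (library labelled clone 5) and 14.9% (clone 6) of the clones' levels. KLF6 thus passed from the seventh to the first place in clone 1. KLF4 made up 11.5% in the parental library and 3.34%, 3.28% and 1.68% in clone 1, the library labelled clone 5 and clone 6. KLF10 made up 28.3% in the parental library and 13.5%, 15.5% and 21.3% in the same order of clones. KLF13 led in the library labelled clone 5 with 31.6% and in clone 6 with 35.5%, after 16.5% in the parental library and 15.7% in clone 1. The share of KLF9 stayed between 12.3% and 15.8%. The genes of the activating group summed to 43.6 CPM per kb in the parental library and to 48.0, 28.6 and 24.8 in the clones, and those of the SIN3-recruiting group to 96.5 and to 44.7, 57.6 and 72.6.

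**Figure D3:**
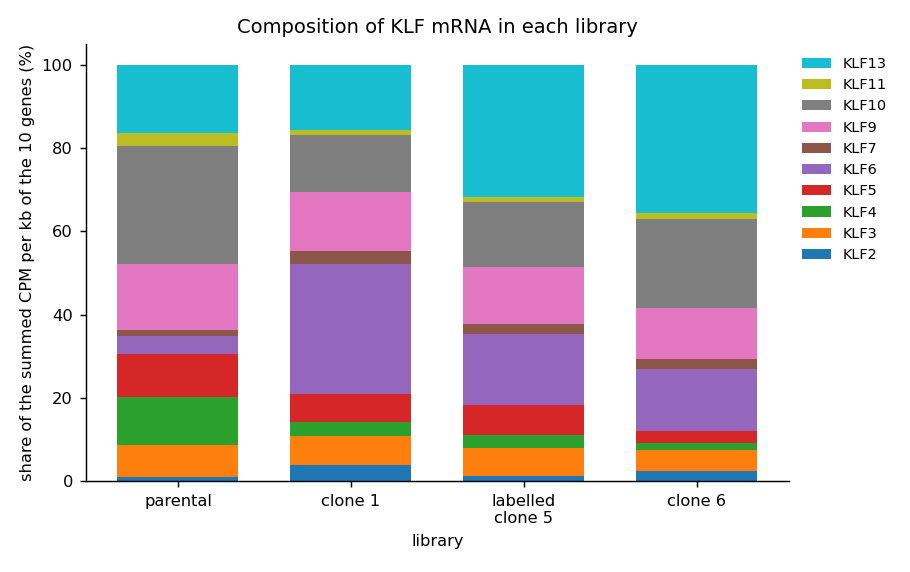
Share of each of the 10 KLF genes in their summed CPM per kb of exon, in percent, with 1 stacked bar per library. KLF6 takes 4.37% of the parental bar and 14.9% to 31.4% of the clones, while KLF4 takes 11.5% of the parental bar and 1.68% to 3.34% of the clones.

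The genes whose pattern over the 4 libraries was most like that of KLF4 were sought among 9827 genes with a mean of at least 10 CPM, by the distance of log2(CPM + 0.5) after centring each gene on its mean. They were SPHK1 (distance 0.124), a sphingosine kinase, PTX3 (0.247), a pentraxin of innate immunity, SLC6A9 (0.345), a glycine transporter, SLC1A4 (0.36), a transporter of neutral amino acids, and CD55 (0.410), a complement inhibitor. SPHK1 had 49.7 CPM in the parental library, 9.42 CPM in clone 1, 9.35 CPM in the library labelled clone 5 and 5.27 CPM in clone 6. Of the 7 other genes of the 10 that reached this mean, KLF5 was nearest, at a distance of 0.977, and KLF6 farthest, at 3.74. KLF11 and KLF2, below this mean, lay at 1.29 and 3.10, and KLF15, which is not among the 10 and also lay below it, was nearer than KLF5, at 0.481. With 4 libraries, of which 3 share a direction, many genes can lie close to such a pattern.

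**Figure D4:**
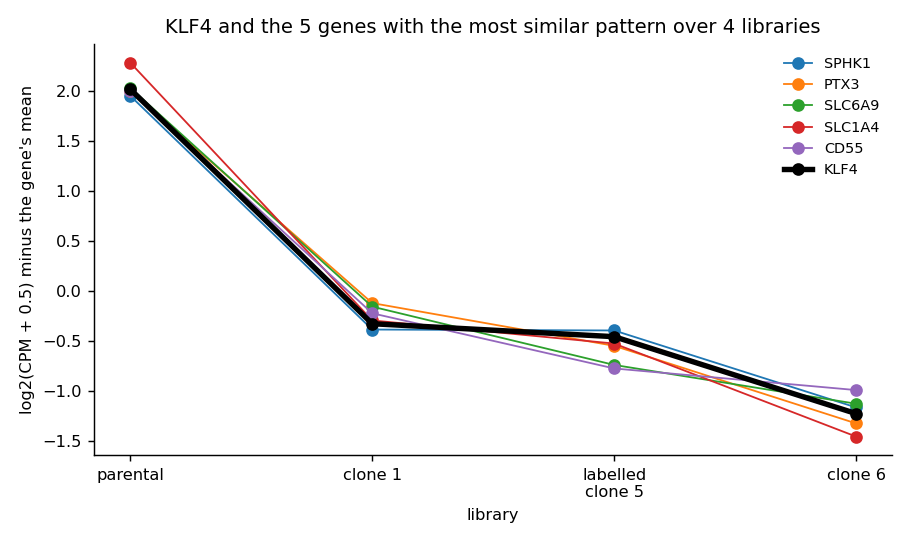
Pattern of KLF4 (thick line) and of SPHK1, PTX3, SLC6A9, SLC1A4 and CD55 over the 4 libraries, as log2(CPM + 0.5) minus the mean of the gene. Each of the 6 genes is highest in the parental library and lowest in clone 6, and the distances to KLF4 run from 0.124 to 0.410.

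The other 8 KLF genes and 9 SP genes were compared by edgeR's quasi-likelihood test, which set the 3 clones against the parental library with Benjamini-Hochberg adjustment over all 22511 genes. In this test 1 gene had an adjusted p under 0.05 (0.00444% of the genes), and it was INHBE, an inhibin subunit gene named here only because it was the 1 called. Of the 17 KLF and SP genes, 14 were tested, none was called, and 1 had an unadjusted p under 0.05, beside 11.5% of all genes. DESeq2's Wald test also called none of the 12 that it gave an adjusted p, beside 6.18% of all genes with one. Of the 14, 4 were lower and 4 higher in all 3 clones, beside 30.5% and 28.6% of all genes. Their median fitted log2 fold change was 0.04, beside 0.10 for all genes. Without clone 1 this median was 0.15, without the library labelled clone 5 it was 0.0084 and without clone 6 it was 0.17. With a minimum mean of 1 CPM it was -0.04. Where a fitted log2 fold change of a gene is given below with an SE, this is its standard error.

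KLF15, a regulator of gluconeogenesis and muscle metabolism, had 8.63 CPM in the parental library, 2.37 CPM in clone 1, 1.55 CPM in the library labelled clone 5 and 0.710 CPM in clone 6. All clones were lower, and its fitted log2 fold change of -2.48 (SE 0.79) had an edgeR adjusted p = 0.354 and a DESeq2 adjusted p of 0.0509. It was the only 1 of the 14 past a log2 fold change of 1 and an unadjusted p of 0.05, as 5.34% of all genes were in the lower and 4.24% in the higher direction. KLF16, which like KLF9 and KLF13 recruits SIN3, had 55.5 CPM in the parental library, 34.9 CPM in clone 1, 23.6 CPM in the library labelled clone 5 and 14.7 CPM in clone 6, with a log2 fold change of -1.18 (SE 0.53, edgeR adjusted p = 0.463).

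KLF12, which recruits CtBP, had 8.22 CPM in the parental library and 10.3 to 11.8 CPM in the clones, with an edgeR adjusted p = 0.708. KLF17, a factor of the early embryo, had counts of 16 (parental), 268 (clone 1), 44 (library labelled clone 5) and 20 (clone 6) (edgeR adjusted p = 0.616). KLF8 had counts of 29 (parental), 1 (clone 1), 104 (library labelled clone 5) and 0 (clone 6), where a count of 0 allows up to 0.0308 CPM. The directions of KLF8 thus differed among the clones. KLF14 had 2 to 28 counts per library, and KLF1, the erythroid factor, and KLF18 had 0 counts in each library, which allows at most 0.0332 CPM.

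Of the SP genes, SP1, the widely expressed founder of its family, had 93.5 CPM in the parental library and 76.5 to 114 CPM in the clones. SP3 had 77.6 CPM in the parental library and 50.4 to 72.0 CPM in the clones, with an edgeR adjusted p = 0.641. SP2 had 22.8 CPM in the parental library and 24.8 to 29.5 CPM in the clones, and SP4 had 9.38 CPM and 4.50 to 15.0 CPM. SP5, a target of Wnt signaling, had 0.608 CPM in the parental library, 5.61 CPM in clone 1, 2.08 CPM in the library labelled clone 5 and 1.22 CPM in clone 6, with a log2 fold change of 2.28 (SE 0.99, edgeR adjusted p = 0.510). SP6, SP7, SP8 and SP9 stayed at or below 0.750 CPM in every library.

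**Figure D5:**
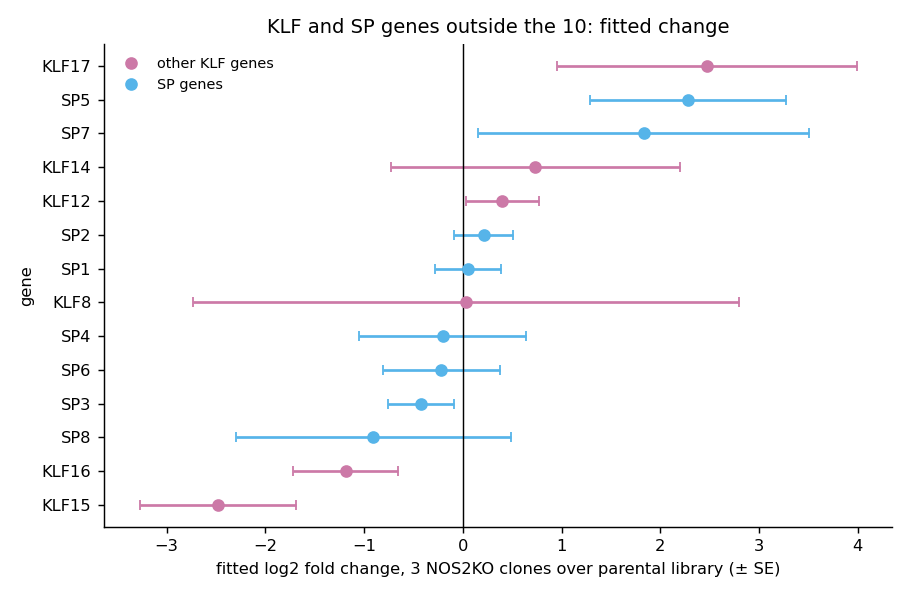
Fitted log2 fold change of the 3 NOS2KO clones over the parental library for the 14 tested KLF and SP genes outside the 10, with bars of 1 SE. KLF15 at -2.48 and KLF16 at -1.18 lie lowest and KLF17 and SP5 lie highest, and no gene had an adjusted p under 0.05.

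Genes that act upstream of KLFs, on KLF proteins, with them or downstream of them were taken from 7 lists of regulators, cofactors and targets. The lists held 58 genes in all, of which 55 were tested. None was called by edgeR's quasi-likelihood test with adjustment over all genes, 5 had an unadjusted p under 0.05 (MEF2C, VHL, HDAC1, CREBBP and PTGES), beside 11.5% of all genes. DESeq2 called 1 of the 52 that it gave an adjusted p, PTGES, beside 6.18% of all genes. Of the 55, 17 were lower and 17 were higher in all 3 clones, beside 30.5% and 28.6% of all genes. The same shares of all genes stand beside the counts by list below. The median log2 fold change of the 55 was 0.09. By list the median was -0.22 for the ERK5 and MEF2 pathway, 0.13 for ubiquitin ligases, -0.40 for cofactors, -0.00 for TGF-beta and SMAD signaling, 0.09 for the glucocorticoid response, 1.08 for targets of KLF2 and KLF4 and 0.22 for targets of KLF5 and KLF6, beside 0.10 for all genes. The median of the targets of KLF2 and KLF4 includes CDH1 and KRT19, which had at most 0.413 CPM in any library. The target lists do not separate genes that a KLF induces from genes that it represses. They also pool KLFs that differed in direction, so no target response is read from these medians.

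Of 6 genes of the ERK5 and MEF2 pathway, which induces KLF2 and KLF4 in endothelium, 2 were lower, 2 higher and 2 mixed. MEF2C had 10.0 CPM in the parental library, 17.2 CPM in clone 1, 33.2 CPM in the library labelled clone 5 and 29.3 CPM in clone 6, a log2 fold change of 1.41 (SE 0.46, edgeR adjusted p = 0.412). MEF2D had 86.8 CPM in the parental library and 52.0 to 81.0 CPM in the clones, and MEF2A had 67.8 CPM and 55.6 to 69.8 CPM. The kinase MAP2K5, which phosphorylates ERK5, had 33.5 CPM in the parental library and 18.1 to 22.3 CPM in the clones (edgeR adjusted p = 0.448).

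Of 8 ubiquitin ligase genes whose proteins act on KLF proteins, 2 were lower, 2 higher and 4 mixed. VHL, the substrate receptor for hypoxia-inducible factors, had 166 CPM in the parental library, 61.8 CPM in clone 1, 86.4 CPM in the library labelled clone 5 and 95.3 CPM in clone 6, a log2 fold change of -1.03 (SE 0.35, edgeR adjusted p = 0.379). The others with high levels, FBXO32, WWP2 and SMURF1, had 42.3, 48.8 and 49.7 CPM in the parental library, and the parental level lay within the range of the clones for all 3.

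Of 11 cofactor genes, 6 were lower and 5 higher in all 3 clones, where 59.1% of all genes had a common direction. HDAC1, a deacetylase of the SIN3 complex, had 143 CPM in the parental library and 235 to 299 CPM in the clones, with a fitted log2 fold change of 0.91 (SE 0.30, edgeR adjusted p = 0.410). CTBP1 had 214 CPM in the parental library and 220 to 253 CPM in the clones, and HDAC2 had 196 CPM and 97.6 to 171 CPM. The acetyltransferase gene CREBBP had 148 CPM in the parental library and 94.0 to 94.9 CPM in the clones (edgeR adjusted p = 0.435). SIN3B had 155 CPM in the parental library and 83.3 to 114 CPM in the clones.

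Of 7 genes of TGF-beta and SMAD signaling, an input of KLF10 and KLF11, 2 were lower, 1 higher and 4 mixed. TGFBR2 had 148 CPM in the parental library and 209 to 300 CPM in the clones (edgeR adjusted p = 0.511). SMAD3 and TGFBR1 were mixed, with 114 and 104 CPM in the parental library. SMAD2 was also mixed, with 56.4 CPM in the parental library and 38.5 to 58.3 CPM in the clones. Of 5 genes of the glucocorticoid response, an input of KLF9, 2 were lower, 2 higher and 1 mixed. The receptor gene NR3C1 had 183 CPM in the parental library and 104 to 171 CPM in the clones, and FKBP5 had 78.3 CPM and 98.8 to 139 CPM. TSC22D3 had 108 CPM in the parental library and 49.2 to 101 CPM in the clones, and PER1 was mixed, with 14.5 to 48.8 CPM.

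Of 13 targets of KLF2 and KLF4, 10 were tested, of which 2 were higher in all 3 clones, 8 were mixed and none was lower in all 3. The squamous differentiation genes SPRR1A, SPRR2A and IVL had 0 counts in every library. VCAM1, an adhesion molecule, had 67.8 CPM in the parental library, 13.6 CPM in clone 1, 152 CPM in the library labelled clone 5 and 165 CPM in clone 6. THBD, thrombomodulin, had 34.4 CPM in the parental library, 33.3 CPM in clone 1, 123 CPM in the library labelled clone 5 and 190 CPM in clone 6. For both genes clone 1 lay below the other clones, and the edgeR adjusted p was 0.860 for VCAM1 and 0.561 for THBD. CCND1, cyclin D1, had 717 CPM in the parental library and 334 to 856 CPM in the clones, and LAMA3 had 53.4 CPM and 48.7 to 55.4 CPM.

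Of 11 targets of KLF5 and KLF6, 3 were lower, 3 higher and 5 mixed. PTGES, the inducible prostaglandin E synthase, had 172 CPM in the parental library, 32.5 CPM in clone 1, 27.7 CPM in the library labelled clone 5 and 36.3 CPM in clone 6, a log2 fold change of -2.42 (SE 0.29, edgeR adjusted p = 0.259). TGFB1 had 242 CPM in the parental library and 349 to 495 CPM in the clones (edgeR adjusted p = 0.504). TNFAIP2 had 248 CPM in the parental library and 178 to 234 CPM in the clones. CCND1 is also in this list, and ENG, a coreceptor of TGF-beta, had 128 CPM and 106 to 201 CPM.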

How the data were processed

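RNA-sequencing was performed on 1 library of parental SUM159 cells and 3 libraries of NOS2KO clones, from poly(A)-enriched mRNA and paired-end reads. The values that the authors deposited are counts of reads per gene, not normalized. The submitters' processing notes name bcl2fastq 2.17, Trimmomatic 0.36, STAR 2.5.2b, featureCounts of Subread 1.5.2, DESeq2 and the genome build GRCh38, and the strand setting was not given in the sources used here. The KLF genes and the gene lists were chosen with earlier results of these data known. Of each list, the genes named are up to 4 with the highest mean CPM and those past a log2 fold change of 1 and an unadjusted p of 0.05, besides every KLF and SP gene, the markers of SUM159 cells and of other cell types, NOS2 and the 5 genes most like KLF4 in pattern. CREBBP, INHBE, CDH1, KRT19, EDN1, S1PR1 and the squamous genes at 0 counts, beyond this rule, were named after their values were seen.

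Counts were analyzed in R 4.3.3 with edgeR 4.0.16 (filterByExpr, TMM, estimateDisp, glmQLFit and glmQLFTest) on 4 libraries, with 2 residual degrees of freedom, and p-values were adjusted by Benjamini-Hochberg over 22511 genes. The p-values measure the spread between these clones only. Log2 ratios of single clones carry Clopper-Pearson intervals, and floors are 3 counts. DESeq2 1.42.0, other scalings and filters, robust estimation and each clone left out were alternatives, and the comparison of the gap with the range of the clones was added after seeing the data. The fits were tested on simulated data with dispersions below the common dispersion of these data, 0.319. That check therefore does not cover data as variable as these. Promoter windows are 250 bases before RefSeq start sites, searched on both strands for motifs. For each gene the start site nearest to its 5′ end in the annotation of the counts was used. Motifs and GC content were read over the whole window, exonic bases included. Intervals and tables were made in Python 3.11.15 with scipy 1.17.1, pandas 2.3.3, numpy 2.4.6 and, for plots, matplotlib 3.10.9.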

Additional observations from a re-analysis of the deposited data

How the results depend on the processing

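No paired analysis was possible because the parental group has 1 library and the labels pair it with no clone. The number of genes called by edgeR was 1, 6 without a filter on low counts and 1095 (540 lower, 555 higher) by DESeq2's Wald test, and with each clone left out it was 0 to 0. The number of KLF genes higher in all clones was 1, and 1 to 2 with each clone left out, as KLF13 joined KLF6 without clone 1 and KLF2 joined it without the library labelled clone 5. The number of regulators, cofactors and targets called was 0, and 1 (PTGES) by DESeq2. The median log2 fold change of the other KLF and SP genes was 0.04, 0.0084 to 0.17 with each clone left out and -0.04 with a minimum mean of 1 CPM. The cause of these changes was not tested. The 6 KLF genes lower in all clones kept that direction under each scaling and filter and with each clone left out, and KLF7 joined them without clone 1. KLF10 joined the genes lower by over 1 without clone 6. The fitted sign of KLF7, which lay near 0, changed with RLE or upper quartile scaling, either filter, DESeq2, and without the library labelled clone 5 or clone 6, and that of KLF13 changed without clone 6. Upper quartile scaling shifted the median log2 fold change of all genes by 0.10 and the absence of a filter by 0.21, and the KLF9 log2 fold change was -0.75 with upper quartile scaling. Depth limits KLF8, KLF14, KLF17 and NOS2, which rest on few counts.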

Other observations

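Genes that share part of a name with the 10 KLF genes were also read. The processed pseudogene KLF2P1 (ENSG00000231240, chr2:130036958-130038422) had counts of 13 (parental), 0 (clone 1), 22 (library labelled clone 5) and 24 (clone 6). KLF2P4 (chr2:131299220-131300444) had 2, 0, 11 and 4 counts in the same order. KLF2P2 and KLF2P3, which lie between them on chromosome 2, had at most 2 counts in any library. This is below the floor of 3 counts, so their 0 counts in clone 1 show no difference. In clone 1 a count of 0 allows up to 0.0246 CPM, and clone 1 had the highest KLF2 level, 886 counts. Reads of near-identical copies can be split or dropped in counting, and the handling of such reads was not given in the sources used here. KLF3-AS1, the antisense gene that overlaps KLF3, had 1.74 CPM in the parental library and 1.09 to 1.23 CPM in the clones, with a fitted log2 fold change of -0.61 (SE 0.54, edgeR adjusted p = 0.683). KLF7-IT1, a transcript inside an intron of KLF7, had 1 count in the parental library and 4 to 5 in the clones. KLF3P2, KLF4P1 and KLF7P1 had 0 counts in every library.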
